A study of Mus musculus with 4 samples.

Results

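Hoxb13 and the Hoxb genes are neighbours on mouse chromosome 11. Of the 10 genes that carry the symbols Hoxb1 to Hoxb9 and Hoxb13, 8 had a row among the 23552 genes of the expression table. They are described here in chromosome order, from Hoxb13 at one end to Hoxb1 at the other. They were taken by symbol, with earlier results of these data known. The study had itself turned to Hoxb13 among genes that were lower in SUV-OE c-Kit+ cells. A fall of Hoxb13 here is therefore not an independent result. Hoxb2 and Hoxb5 had no row and are not analysed here. Expression was measured by RNA-seq in c-Kit+ leukemic cells, taken from the bone marrow of moribund C57BL/6 mice (C57BL/6J in the study's methods) with MLL-AF9-induced acute myeloid leukemia (AML). MLL-AF9 is a fusion oncogene that both groups carried. The 2 control libraries (replicates 3 and 4) came from cells that overexpressed eGFP, and the 2 SUV-OE libraries (replicates 2 and 3) from cells that overexpressed Suv39h1 together with eGFP. Suv39h1 is an enzyme that trimethylates lysine 9 of histone H3, a mark of silent chromatin. All 4 libraries belonged to RNA-seq batch 2. The transgene was carried by a viral vector with an MSCV promoter that drives Suv39h1 and eGFP from 1 transcript, according to the plasmid described in the study's methods. The recipients in the study were young adult females. No label ties a library to a single mouse, so p-values measure the spread between these libraries, which may be technical.

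Hox genes encode homeodomain transcription factors that set the position of cells along the body axis, and within a cluster they are switched on in the order in which they lie. Low-numbered genes at the 3' end are anterior genes, and the group-13 genes at the 5' end are the most posterior. In blood, anterior Hoxb genes such as Hoxb4 are known from stem and progenitor cells, whereas Hoxb13 is best known from the prostate and the distal gut. MLL fusion leukemias are known above all for high Hoxa9 and Hoxa10 with the cofactor Meis1. In bulk RNA, fewer cells that transcribe a gene and less transcript per cell cannot be told apart.

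RefSeq start windows of 300 bases, which run from upstream of a gene's start to just past it in GRCm38.p6, were matched to 3 of the 10 genes, Hoxb4, Hoxb1 and Hoxb8. The first sequence below is the window of Hoxb4, the Hoxb gene with the most reads in SUV-OE. The second is that of Hoxb1, at the same end of the cluster and close to 0 in every library. The third is a window of Gm30134, a long noncoding RNA gene on the minus strand beside Hoxb13, inside which lie 2 table rows that fell in SUV-OE. Capitals mark CG dinucleotides, and each sequence is written 5' to 3' on its gene's strand.
Hoxb4, chr11:96318017-96318316, plus strand: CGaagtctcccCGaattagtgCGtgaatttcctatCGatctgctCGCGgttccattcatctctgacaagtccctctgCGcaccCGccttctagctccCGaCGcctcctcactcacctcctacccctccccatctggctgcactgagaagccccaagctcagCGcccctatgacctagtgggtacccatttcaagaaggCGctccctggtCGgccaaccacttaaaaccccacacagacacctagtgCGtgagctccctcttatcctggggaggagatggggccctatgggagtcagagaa
Hoxb1, chr11:96365508-96365807, plus strand: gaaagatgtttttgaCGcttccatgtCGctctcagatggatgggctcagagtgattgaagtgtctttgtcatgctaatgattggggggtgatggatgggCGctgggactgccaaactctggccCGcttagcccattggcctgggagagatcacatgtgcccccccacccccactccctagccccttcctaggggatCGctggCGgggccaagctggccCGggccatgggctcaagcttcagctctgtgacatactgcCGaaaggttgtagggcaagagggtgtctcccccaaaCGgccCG
Gm30134, chr11:96203577-96203876, minus strand: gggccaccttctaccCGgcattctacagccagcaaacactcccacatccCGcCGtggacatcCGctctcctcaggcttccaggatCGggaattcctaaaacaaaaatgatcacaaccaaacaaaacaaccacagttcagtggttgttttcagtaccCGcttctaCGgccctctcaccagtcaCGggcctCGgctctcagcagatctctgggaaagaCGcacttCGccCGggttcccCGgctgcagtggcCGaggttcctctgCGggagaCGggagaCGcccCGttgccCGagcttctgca
The Hoxb4 window held 14 CG dinucleotides, the Hoxb1 window 10, the Hoxb8 window (chr11:96281655-96281954, plus strand, not printed) 13 and the Gm30134 window 19, against a median of 7 over 32851 such windows. At least as many as in Hoxb4 were found in 36.3% of windows, as in Hoxb1 in 43.5%, as in Hoxb8 in 37.9% and as in Gm30134 in 28.1%. The letters TGATNNAT, a motif bound by HOX proteins together with a cofactor, were searched on both strands. They stood once in the Hoxb1 window, as TGATGGAT, and once in the Hoxb8 window, as ATTGATCA on the other strand, and not in the Hoxb4 or Gm30134 window, while 8.85% of all windows held at least 1 match.

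The FPKM, which count fragments relative to exon length and to sequencing depth, were whole multiples of 1 read at the GENCODE M21 exon lengths for all 8 genes, so each value is given with its reads. The recovered libraries held 20138397 to 23633390 reads, and 3 reads on 1 kb of exon corresponded to 0.154 to 0.178 FPKM. Suv39h1, the overexpressed gene, was at 12.4 FPKM in both control libraries and at 75.3 and 81.2 FPKM in the SUV-OE libraries, as labelled (log2 fold change of FPKM + 1, 2.56 ± 0.11 SE, limma adjusted p = 0.00866). A gene was called a differentially expressed gene (DEG) where limma's Benjamini-Hochberg adjusted p was under 0.05 and the log2 fold change was 1 or more in either direction. Of 13736 genes that averaged 0.5 FPKM or more, limma called 168 DEGs.

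Hoxb13 (ENSMUSG00000049604, chr11:96194316-96197447, plus strand, mm10) was low in control cells and lower in SUV-OE cells. It was at 1.77 and 1.07 FPKM in control replicates 3 and 4, from 76 and 40 reads. In SUV-OE replicates 2 and 3 it was at 0.179 and 0.127 FPKM, from 7 and 5 reads. Both SUV-OE values lay below both control values, and the exact 95% Poisson intervals did not touch, since the lower limit in control replicate 4 was 0.768 FPKM and the higher upper limit in SUV-OE was 0.368 FPKM. Scaled by the totals behind the FPKM (16873770 to 19453058 per library, which are smaller than the recovered reads), the 116 control reads against 12 SUV-OE reads gave a level 9.45 times as high in control (exact 95% interval 5.21 to 18.8, counting error only). On the log2(FPKM + 1) scale, which understates changes of low genes, the fold change was -1.06 ± 0.21 (SE, n = 2 per group), and limma's adjusted p was 0.0983, which missed the threshold. Limma-voom on the recovered reads, the count-based alternative, gave -3.10 ± 0.54 with an adjusted p of 0.0230 and called Hoxb13. Thus Hoxb13 was a DEG by reads and not by FPKM. It passed the filter on low values only through its control level.

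**Figure D1:**
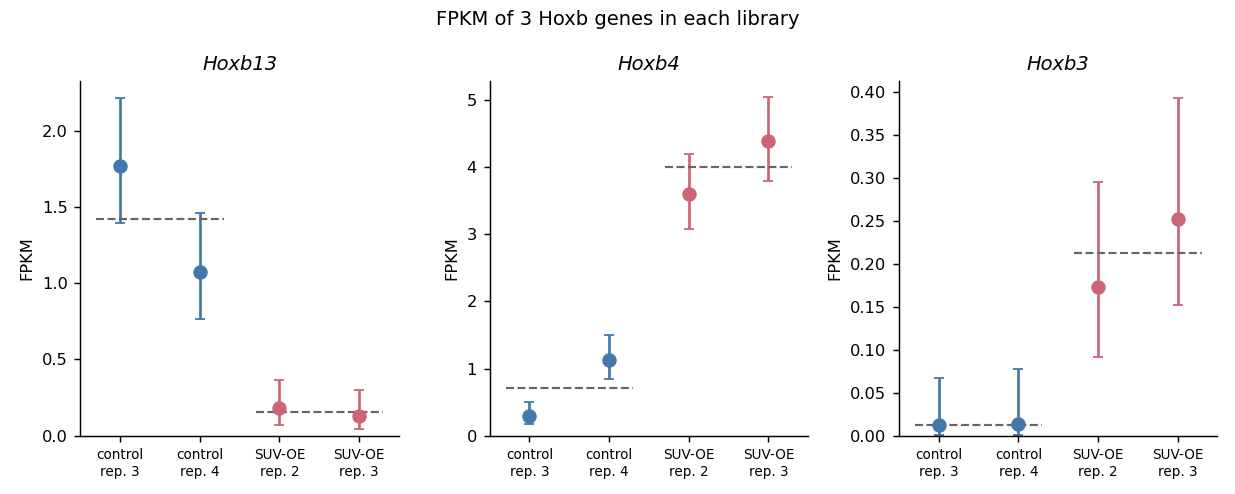
FPKM (y axis, from 0, a different range in each panel) of Hoxb13, Hoxb4 and Hoxb3 in each of the 2 control and 2 SUV-OE libraries (x axis). Points are library values, bars exact 95% Poisson intervals of the reads (counting error only) and dashed lines group means. The group means are 1.42 in control and 0.153 FPKM in SUV-OE for Hoxb13, 0.716 and 3.99 FPKM for Hoxb4, and 0.0130 and 0.212 FPKM for Hoxb3.

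Beside Hoxb13 lay 2 short noncoding rows on the minus strand, and both fell. Gm27898 (chr11:96199751-96199830, 80 bp) starts 2303 bp past the end of Hoxb13. It was at 25.7 and 25.9 FPKM in control and at 7.04 and 4.92 FPKM in SUV-OE, from 40, 35, 10 and 7 reads. Gm27605 (chr11:96200176-96200311, 136 bp) was at 97.9 and 91.5 FPKM in control and at 20.3 and 9.93 FPKM in SUV-OE, from 259, 210, 49 and 24 reads. In both rows the groups did not overlap and the control libraries were close to each other. Both rows were DEGs in limma, with a log2 fold change of -1.96 ± 0.18 (adjusted p = 0.0280) for Gm27898 and -2.65 ± 0.33 (adjusted p = 0.0480) for Gm27605. The reads gave control levels 4.31 times (2.52 to 7.79) and 6.28 times (4.90 to 8.16) the SUV-OE levels. Limma-voom also called both (adjusted p = 0.0414 and 0.00904). The call of Gm27605 was lost, at an unchanged direction, with a pseudocount of 0.1 (adjusted p = 0.0617), with quantile normalization (0.0530) and when any library was left out (0.0969 to 0.199). That of Gm27898 was lost when any library was left out (0.114 to 0.216), without a filter on low values (0.115) and in limma-voom at 1 mean read or more (0.0528), again at an unchanged direction. RefSeq places both rows inside Gm30134 (chr11:96198863-96203626, minus strand, GRCm38.p6), the gene whose start window is printed above. The kit does not mark strand, so reads of Gm30134 and of any plus-strand transcript there cannot be told apart. The rows, at 80 and 136 bp, are shorter than the read length given in the study's methods, so their FPKM are not comparable with those of Hoxb13. The pair held 299 and 245 reads in the control libraries against 59 and 31 in the SUV-OE libraries, which was 3.93 to 8.43 noncoding reads for each Hoxb13 read.

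From Hoxb13 the chromosome ran 74.0 kb to Hoxb9, and past the 2 noncoding rows only Gm11539 and Gm53 had rows in that stretch. Gm11539, a processed pseudogene whose reads may be shared with its parent gene, was at 4.71, 4.15, 2.83 and 2.02 FPKM in the order control 3, control 4, SUV-OE 2 and SUV-OE 3. Its SUV-OE values were both below its control values, at a log2 fold change of -0.67 ± 0.17 that limma did not call (adjusted p = 0.142). Gm53, a long intergenic noncoding RNA, had 2 reads in all.

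The middle of the cluster was close to silent in both groups. Hoxb9, Hoxb8 and Hoxb7, which pattern the trunk, had 2, 2 and 3 reads over the 4 libraries. Hoxb6, known from erythroid and myeloid progenitors, had 0, 5, 3 and 2 reads in the same order of libraries, or 0 to 0.151 FPKM. Its ratio of SUV-OE over control was 1.02, with an exact 95% interval of 0.235 to 4.44 that covers a change of more than 4-fold either way. Limma-voom, with genes of at least 1 mean read, gave it 0.94 ± 1.28 (adjusted p = 0.721). The antisense gene Hoxb5os, which overlaps Hoxb6, had 0, 1, 1 and 1 reads. A difference in these genes was not detectable at this depth, which does not show that they did not differ. None of the 4 reached the filter of 0.5 FPKM.

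Hoxb4 (ENSMUSG00000038692, chr11:96318267-96321638, plus strand), a gene known for expanding blood stem cells when overexpressed, was higher in SUV-OE. It was at 0.301 and 1.13 FPKM in control replicates 3 and 4, from 15 and 49 reads. In SUV-OE replicates 2 and 3 it was at 3.60 and 4.38 FPKM, from 164 and 200 reads. The groups did not overlap, although control replicate 4 was 3.77 times control replicate 3. The 2 SUV-OE libraries differed by 1.22 times. The level was 5.82 times as high in SUV-OE by reads (4.45 to 7.71, counting error only). Limma gave a log2 fold change of 1.58 ± 0.28 with an adjusted p of 0.0828, over the threshold, and limma-voom gave 2.79 ± 0.51 with an adjusted p of 0.0268, which called it. Like Hoxb13, Hoxb4 was a DEG by reads and not by FPKM. Without control replicate 3, the library with the lowest Hoxb4, no gene of the table was called, so that fit says nothing about Hoxb4 alone.

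Ahead of Hoxb4, ending 992 bp before its start, lies Mir10a, a microRNA gene that is transcribed together with Hoxb4 and Hoxb3 in many tissues. Its main mature product shows which RNA this row stands for, with the seed, bases 2 to 8, in capitals.
mmu-miR-10a-5p, chr11:96317186-96317208, plus strand, GRCm38.p6: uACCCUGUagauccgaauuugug
The 110 bp hairpin row was at 0 and 0.539 FPKM in control and at 4.61 and 3.07 FPKM in SUV-OE, from 0, 1, 9 and 6 reads. The SUV-OE libraries were the higher ones, at a ratio of 15.3 that the counting error places between 2.36 and 646. Limma did not call it (1.95 ± 0.29, adjusted p = 0.0636), nor did limma-voom with at least 1 mean read (adjusted p = 0.160). These libraries hold fragments of long RNA, and the mature microRNA was not measured.

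Hoxb3 (ENSMUSG00000048763, chr11:96323326-96347930, plus strand), another anterior gene of blood progenitors, begins 1687 bp past the end of Hoxb4. It had 1 read in each control library and 13 and 19 reads in SUV-OE, or 0.0121, 0.0139, 0.172 and 0.251 FPKM. Its SUV-OE values were all above its control values, and the read ratio was 16.4, with an exact 95% interval of 4.17 to 141. It stayed under the filter on FPKM, and limma-voom with genes of at least 1 mean read gave 3.46 ± 0.87 with an adjusted p of 0.0816, no call. Hoxb3os, antisense to Hoxb3 in a library without strand, had 0, 0, 2 and 1 reads. Hoxb1, at the far end and a gene of the embryonic hindbrain, had 0, 0, 0 and 3 reads, which is at the floor of 3 reads.

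The plot of read ratios along the chromosome shows the order of these differences. Going from 5' to 3', the ratio of SUV-OE over control was 0.106 at Hoxb13, 0.232 and 0.159 at the 2 noncoding rows, 0.545 at Gm11539 and 1.02 at Hoxb6. It was then 15.3 at Mir10a, 5.82 at Hoxb4 and 16.4 at Hoxb3. The 4 rows from Hoxb13 to Gm11539 lay below control in both SUV-OE libraries, as did 28.4% of all tested genes, and limma called the 2 noncoding rows among them. Mir10a, Hoxb4 and Hoxb3 lay above control in both, as did 25.4% of all tested genes, and limma called neither Mir10a nor Hoxb4 and did not test Hoxb3. Limma-voom called Hoxb4 and not the other two. Hoxb13 and Hoxb4 lay 121 kb apart, measured from the end of Hoxb13 to the start of Hoxb4. Outside the cluster, the nearest 5 tested genes on each side (4833417C18Rik, B4galnt2, Snf8, Ube2z and Atp5g1 beyond Hoxb13, and Gm11537, Snx11, Cbx1, Gm11517 and Nfe2l1 beyond Hoxb1) had log2 fold changes from -0.31 to 0.60. Limma called 0 of these 10, with a lowest adjusted p of 0.155 and 2 genes at an unadjusted p under 0.05, and limma-voom called 0 of the 9 it tested. Their median was 0.08, beside -0.02 over all tested genes.

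**Figure D2:**
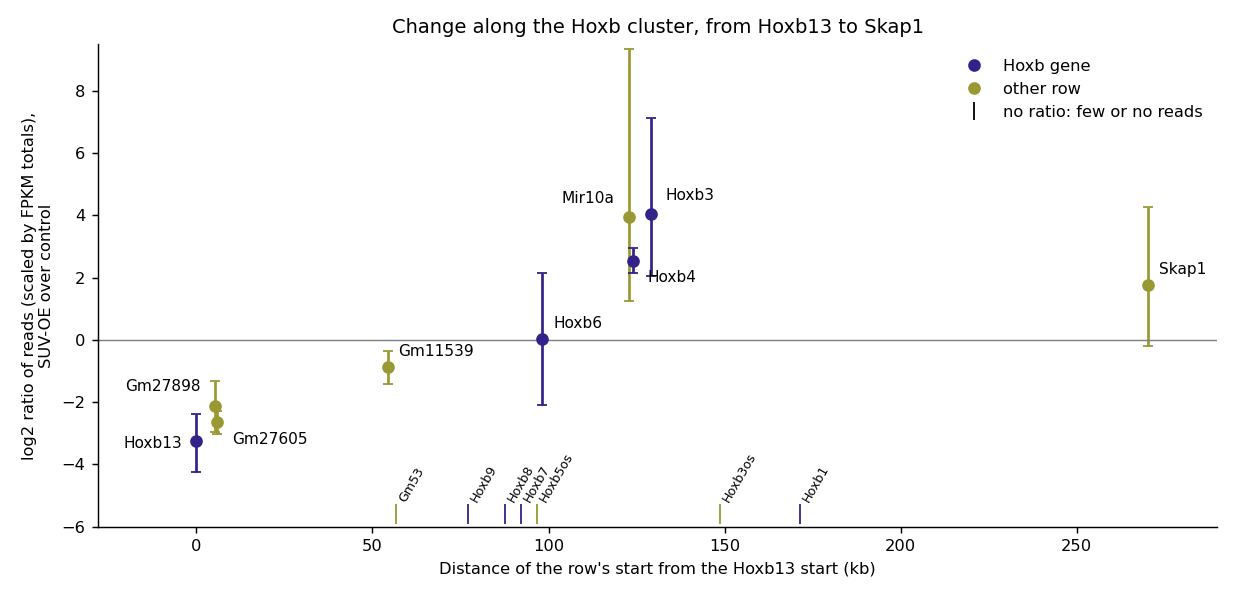
The y axis gives the log2 ratio of reads, SUV-OE over control, scaled by the totals behind the FPKM, for the 16 table rows from Hoxb13 to Skap1, with exact 95% intervals for counting error. The x axis gives the distance of each row's start from the Hoxb13 start in kb, and ticks at the bottom mark rows with too few reads for a ratio. Hoxb13 and the 2 noncoding rows beside it lie below 0, Hoxb6 at 0 with a wide interval, and Mir10a, Hoxb4 and Hoxb3 above 0.

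Among the Hoxb genes themselves, Hoxb13 led in control replicate 3 and Hoxb4 in both SUV-OE libraries. FPKM is a value per length, so the genes can be set beside each other. The summed level of the 8 genes was 2.08 and 2.43 FPKM in control and 4.08 and 4.99 FPKM in SUV-OE. Hoxb13 made up 85.0% and 44.2% of that sum in control replicates 3 and 4, and 4.39% and 2.55% in SUV-OE replicates 2 and 3. Hoxb4 made up 14.4% and 46.5% in the control libraries against 88.4% and 87.8% in the SUV-OE libraries. In control replicate 4 the pair was about level, at 1.05 Hoxb4 FPKM for each Hoxb13 FPKM, whereas the ratio was 0.170 in control replicate 3 and 20.1 and 34.4 in SUV-OE. Hence control replicate 4 lay between control replicate 3 and the SUV-OE libraries in both genes, and the size of the change depends on which control library is taken. The order of levels in control replicate 3 was Hoxb13 above Hoxb4 with intervals apart (1.40 to 2.22 against 0.168 to 0.496 FPKM). In control replicate 4 the intervals of Hoxb13 (0.768 to 1.46 FPKM) and Hoxb4 (0.837 to 1.496 FPKM) overlapped.

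**Figure D3:**
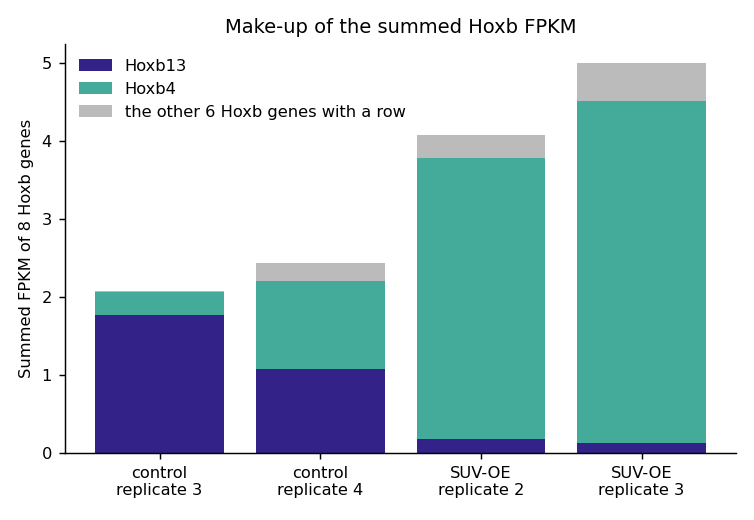
Bars from 0 show the summed FPKM (y axis) of the 8 Hoxb genes with a row in each library (x axis), divided into Hoxb13, Hoxb4 and the other 6 genes. Hoxb13 is the larger part in control replicate 3 at 85.0%, about level with Hoxb4 in control replicate 4, and under 5% in both SUV-OE libraries.

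Over the cluster, 2 of the 8 genes passed the filter on low values, and limma called 0 of them. Both had an unadjusted p under 0.05 (Hoxb13 0.00450, Hoxb4 0.00260), as had 2842 of the 13736 tested genes. Of all tested genes, 0.408% were DEGs that were lower in SUV-OE and 0.815% DEGs that were higher. Limma-voom on genes with at least 10 mean reads called 1 Hoxb gene lower and 1 higher, where 1.11% of its 14272 genes were called lower and 3.63% higher. With at least 1 mean read it called the same pair, Hoxb13 and Hoxb4, and the shares were 0.658% and 2.06% of 20961 genes. Groups that did not overlap were common, since both SUV-OE libraries lay below both control libraries in 28.4% of tested genes and above them in 25.4%. Hoxb13 was the member below, and Hoxb4 and Hoxb3 were the members above, so that lack of overlap by itself sets none of the 3 apart. In the plot of all tested genes, both lie at the low end of expression. At that level the added pseudocount of 1 FPKM takes up much of the change, and with 0.1 in its place the Hoxb13 fold change was -2.56 and that of Hoxb4 was 2.54, neither called by limma.

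**Figure D4:**
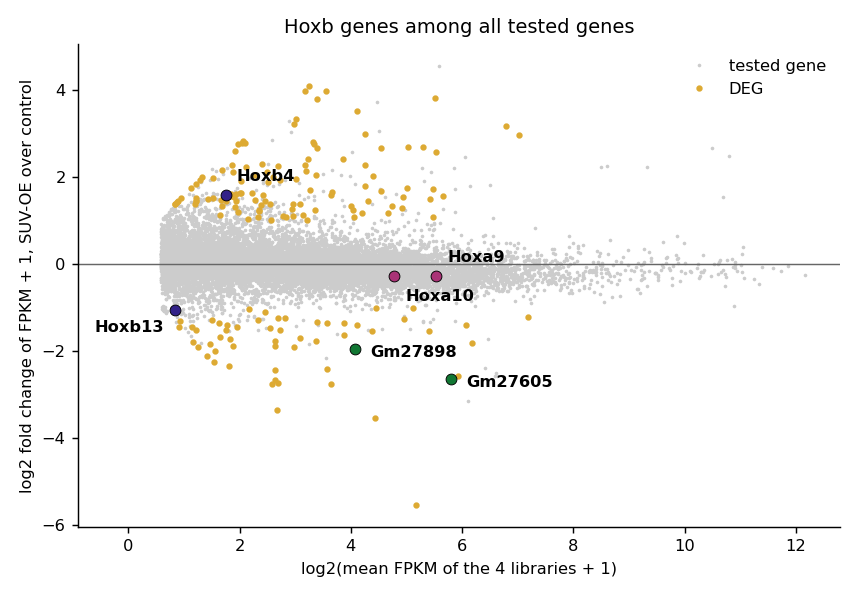
Log2 fold change of FPKM + 1, SUV-OE over control (y axis), against log2 of the mean FPKM of the 4 libraries + 1 (x axis) for the 13736 tested genes. Grey points are tested genes, yellow points the 168 DEGs, and larger points the named genes. Hoxb13 at -1.06 and Hoxb4 at 1.58 lie near the left edge and were not DEGs, Gm27898 and Gm27605 were DEGs, and Hoxa9 and Hoxa10, both at -0.28, lie further right.

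The Hoxa cluster, the one known for driving MLL leukemias, had far higher FPKM than the Hoxb cluster and no DEG. Hoxa9 was at 57.3 and 43.0 FPKM in control and at 40.1 and 41.5 FPKM in SUV-OE, which was 27.5 and 17.7 times the whole Hoxb sum in control and 9.83 and 8.32 times in SUV-OE. The Hoxa9 and Hoxa10 log2 fold changes were both -0.28 (limma adjusted p = 0.421 and 0.379). Of the 11 Hoxa genes, 10 had a row and 8 were tested, of which 2 had a positive and 6 a negative fold change, from -0.62 to 0.17 with a median of -0.28. Limma and limma-voom each called 0 of them, and 1 of them, Hoxa6, had an unadjusted p under 0.05 in limma. No difference between the clusters was tested.

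The rows of the other clusters held few reads, and their genes without a row cannot be judged here. Of 9 Hoxc genes 4 had a row, and of 9 Hoxd genes 1 had, and limma tested 0 of these 5. The summed reads were 3, 4, 11 and 7 over the Hoxc genes and 0, 0, 2 and 1 over Hoxd8. Hoxc9, named after its values were seen, had no read in control and 10 and 5 reads in SUV-OE. Hoxb13 was also the only group-13 gene with a row, so its paralogs Hoxa13, Hoxc13 and Hoxd13 cannot be set beside it here.

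Genes for the proteins that act on Hox clusters held no DEG in limma apart from Suv39h1. Among 26 genes for regulators of Hox clusters, such as the MLL and Polycomb complexes, 21 were tested, 12 with a positive and 9 with a negative fold change. Limma called 0 of them, with a median of 0.02 and 4 genes at an unadjusted p under 0.05, and limma-voom called 0 of 23. In limma, the largest difference was in Cbx2, a Polycomb reader of methylated histone H3, at 0.72 (adjusted p = 0.139). In limma-voom Cbx2 was at 1.06, and 2 genes under the FPKM filter were larger. These were Rarb at 1.34 (limma-voom adjusted p = 0.395) and Mllt3 at 1.19 (0.0512). The Cdx genes, activators of posterior Hox genes, had no row. Of 9 genes for H3K9 methyltransferases, HP1 proteins and the corepressor Trim28, all tested, Suv39h1 itself was the 1 DEG and the median was -0.01. Over all tested genes, 6458 had a positive and 7278 a negative fold change.

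Markers of several other cell types had higher sums in the SUV-OE libraries, as Hoxb4 had, and their part in the Hoxb values was not tested. The 12 leukemic progenitor markers, among them Kit, Mpo and Meis1, were all tested with 0 calls by limma or limma-voom and 3 at an unadjusted p under 0.05, and summed to 4643 and 5234 FPKM in control and 3469 and 4103 FPKM in SUV-OE. The sum followed Ctsg, an abundant granule protease gene, at -0.95 (adjusted p = 0.198), while 8 of the 12 had a positive fold change, Kit with 0.43 and Meis1 with 0.18 among them, and the median was 0.10. The 10 neutrophil markers had positive fold changes in 10 of 10 genes, and summed to 750 and 2375 FPKM in control and 6639 and 8086 FPKM in SUV-OE. Here too control replicate 4 lay between control replicate 3 and the SUV-OE libraries, as for Hoxb4. Of these 10, limma called 1, Ltf, which encodes lactoferrin of neutrophil granules, at 2.95 (adjusted p = 0.0434). All 10 had an unadjusted p under 0.05, and limma-voom called 8 of them higher. Mast cell, basophil and eosinophil markers summed to 65.2 and 124 FPKM in control, against 230 and 173 FPKM in SUV-OE. B-lymphoid markers summed to 22.2 and 31.2 FPKM against 50.1 and 121 FPKM. Limma called 0 genes in either list, with 3 and 10 at an unadjusted p under 0.05, and limma-voom called 1 and 5, all higher. The erythroid sums were 42.7 and 170 FPKM against 170 and 142 FPKM, with Car1 and Car2 called higher. The megakaryocyte sums were 8.19 and 14.8 FPKM against 26.4 and 30.6 FPKM, those of T and NK cells 3.03 and 3.25 against 4.38 and 5.29 FPKM, and those of monocytes and macrophages 179 and 251 against 237 and 239 FPKM. Limma called 0 genes of these 3 lists, with 3, 2 and 6 at an unadjusted p under 0.05. Among those, Lck of the T and NK list (-0.59) and Vcam1 of the monocyte and macrophage list (-0.62) were lower in SUV-OE, and the others higher. Limma-voom called 4, 1 and 1 genes of the 3 lists, and all its calls were higher. The stromal and endothelial sums were 26.5 and 32.7 FPKM against 81.4 and 71.7 FPKM, where Pecam1, an adhesion molecule of endothelium and many blood cells, was called higher. Those sums followed Pecam1, at 16.7 and 23.3 FPKM in control and 70.3 and 64.1 FPKM in SUV-OE, while Pdgfrb, the other tested marker of the 11, was at -0.22 (adjusted p = 0.584). No marker with a row was at 0 in all 4 libraries.

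Hoxb13 is a gene of distal gut and prostate epithelium, so markers of those epithelia were read as well. Of 10 such markers 4 had a row, and their sums were 4.62 and 4.50 FPKM in control and 22.4 and 21.3 FPKM in SUV-OE. The sums followed Epcam, an epithelial adhesion gene that erythroid progenitors also express, which limma called higher in SUV-OE (3.79, adjusted p = 0.00587). The other tested marker, Krt18, was at -0.17 (adjusted p = 0.562). The 2 markers under the filter were Krt8, at 0.741 and 0.394 FPKM in control and 0.343 and 0.249 FPKM in SUV-OE, and Vil1, at 0.101, 0.184, 0.127 and 0.0792 FPKM.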

How the data were processed

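RNA-seq of AML c-Kit+ cells gave 2 control and 2 SUV-OE libraries. Libraries were made with the TruSeq kit and, per the labels and the study's methods, base calls came from CASAVA 1.8 and reads were aligned to mm10 with TopHat2. The values deposited by the authors are FPKM, 1 for each gene in each library, which the methods credit to Cufflinks. The annotation release is not given in the sources used here.

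Log2(FPKM + 1) was tested with limma 3.58.1 in R 4.3.3 (two-sided, group as the only term, intensity trend, Benjamini-Hochberg over 13736 genes that averaged 0.5 FPKM or more). The study's count test needs counts, which FPKM are not. Whole reads were recovered from the FPKM steps: for 18498 genes (78.5%) all values were whole at GENCODE M21 exon lengths, within 0.01 reads, for 4913 at another length, and for 141 not. The reads served limma-voom and exact Poisson or conditional binomial 95% intervals. Intervals and floors cover counting error only. Both fits were checked on simulated data, with a set spread between replicates that was not estimated from these libraries. That check gives no error rate for these data. The fold thresholds follow the study.

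The members and gene lists were chosen with earlier results of these data known. The genes named were the members, the rows between and beside them, 5 tested genes on each side, Suv39h1, Hoxa9, Hoxa10, and per list the called gene or that with the largest difference. Other genes were named after their values were seen. The list of HOX cofactor genes is not reported here. Alternatives covered the pseudocount, filter, scaling, variance trend, call rule, reads and each library left out. With 2 libraries per group, limma's pooled variance carries the tests. Neither columns of other samples nor columns of the authors' comparisons were in the table.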

Additional observations from a re-analysis of the deposited data

How the results depend on the processing

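Hoxb13 kept its negative and Hoxb4 its positive sign under every alternative in which each was tested. Hoxb13, with a mean of 0.788 FPKM, was not tested at a mean FPKM of at least 1. With all libraries and FPKM, limma's adjusted p ran from 0.0825 to 0.154 for Hoxb13 and from 0.0732 to 0.174 for Hoxb4. Limma-voom called both, with log2 fold changes of -3.10 and 2.79 at 10 mean reads or more, and of -3.11 and 2.77 at 1 mean read or more, an alternative chosen after seeing the data. The number of Hoxb genes called was then 1 lower and 1 higher, as it was at an adjusted p under 0.1.

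Over all genes, calls were 159 lower and 518 higher, and 138 and 432, in the same limma-voom fits. They were 93 and 249 at an adjusted p under 0.1, and 74 higher with a pseudocount of 0.1. Without a filter limma called 0 and 0, with 4177 genes at an unadjusted p under 0.05. Leaving out each library (control replicate 3 or 4, SUV-OE replicate 2 or 3) gave 0 to 0 calls in either direction, with 1166 to 3877 genes at an unadjusted p under 0.05. In these fits the lone library is assumed to vary like the other group. They gave -1.27 to -0.85 for Hoxb13 (adjusted p 0.123 to 0.443) and 1.22 to 1.94 for Hoxb4 (0.115 to 0.427), and ended the calls of Gm27898 and Gm27605. Gm27898 also lost its call without a filter (adjusted p = 0.115) and in limma-voom at 1 mean read or more (0.0528). Gm27605 also lost its call without a filter (0.138), without the variance trend (0.0531) and with a robust trend (0.0520). The Hoxa median ran from -0.44 to -0.0895, the latter without control replicate 3. The median of the 9 H3K9, HP1 and Trim28 genes was 0.0933 with quantile normalization and ran from -0.14 without control replicate 4 to 0.0948 without control replicate 3. The cause of these shifts was not tested. Of the compared values, 132 kept their side of the threshold or moved by less than a set limit, 34 moved by more, 15 lost a call and 4 gained one. The limit was the spread for genes under the filter and a fixed factor for counts of called genes. Most of the 34 were such counts. Some uncalled values near 0 turned sign, such as the median of the H3K9, HP1 and Trim28 genes. Hoxb6 did so too, at -0.0016 on log2(FPKM + 1), 0.11 with a pseudocount of 0.1 and 0.94 in limma-voom.

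No paired analysis was possible because control and SUV-OE have just 1 replicate number in common, replicate 3. Hoxb6 to Hoxb9 and Hoxb1 are limited by depth, at 10 reads or fewer each over all libraries.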

Other observations

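Genes known from blood stem cells were read as a further list, since Hoxb4 is itself such a gene. Of 12 listed genes 11 had a row, and 5 passed the filter, 3 higher and 2 lower in SUV-OE, with a median difference of 0.72 on the log2 scale. Limma called 1 of them, Hlf, a transcription factor of stem cells, which was at 0.877 and 0.772 FPKM in control and at 4.11 and 3.15 FPKM in SUV-OE (1.34, adjusted p = 0.0480). Flt3, a receptor of multipotent progenitors named here after its values were seen, was at 10.3 and 9.08 FPKM in control and at 6.20 and 4.18 FPKM in SUV-OE (-0.81, limma adjusted p = 0.133). Gata2 (0.72) and Ly6a (0.80) were higher in SUV-OE and not called. With Hlf and Flt3 they were the 4 genes of the list at an unadjusted p under 0.05 in limma. The summed level of the list was 24.7 and 21.5 FPKM in control and 33.5 and 27.0 FPKM in SUV-OE.

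Skap1, a T-cell adaptor gene and the next row beyond Hoxb1, was named after its values were seen. Its reads were 0, 3, 4 and 6 in control 3, control 4, SUV-OE 2 and SUV-OE 3, at a ratio of 3.41 whose exact 95% interval ran from 0.878 to 19.3.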
